A study of Mus musculus with 24 samples.

Results

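Messenger RNA of the C/EBP transcription factors Cebpa, Cebpb, Cebpd and Cebpg was followed across mouse blood progenitors, fusion oncogenes and leukemia. Probe sets were taken where the platform annotation gave 1 of these 4 symbols and no other. This chose 8 of the 22690 probe sets on the array and 4 of the 12393 genes that a single symbol names. Cebpa had 1 probe set, Cebpb and Cebpd had 2 each, and Cebpg had 3.

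All cells came from C57BL/6 mice, and 24 arrays fell into 7 groups. Granulocyte monocyte progenitors (GMP), the precursors of neutrophils and monocytes, had been transduced with an empty GFP vector (3 arrays), MOZ-TIF2 (MT2, 4 arrays), NUP98-HOXA9 (NHA9, 3 arrays) or AML1-ETO (AE, 4 arrays). GFP-positive cells of these groups were harvested 36 h after spinoculation, so the GFP group carries the culture and the vector but no oncogene. The remaining groups were sorted normal cells without vector, either LSK cells (3 arrays, titled HSC, the fraction that holds the blood stem cells) or GMP (4 arrays), and GMP sorted from MOZ-TIF2 leukemias (L-GMP, 3 arrays). The labels do not say whether arrays of a group came from separate animals, transductions or leukemias, so the p-values measure a spread that may be partly technical.

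C/EBP proteins are basic leucine zipper (bZIP) factors that bind DNA as dimers with one another or with related zipper proteins. C/EBP alpha is required for the step that produces GMP and slows the cell cycle of myeloid precursors. C/EBP beta serves emergency granulopoiesis and macrophage activation, C/EBP delta is an acute phase factor induced by cytokines, and C/EBP gamma lacks a classical activation domain and acts through partners, among them ATF4. AML1-ETO protein is known to lower Cebpa expression and to bind C/EBP alpha in human leukemia cells.

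In the mouse assembly GRCm38.p6, RefSeq places Cebpa (gene 12606) at chr7:35119293-35121928 and Cebpb (12608) at chr2:167688915-167690432. Cebpd (12609) lies at chr16:15887286-15889545 and Cebpg (12611) at chr7:35046422-35056566. Cebpg and Cebpa are neighbours on chromosome 7, 62.7 kb apart, with the long noncoding RNA gene Gm35611 between them. RefSeq promoter sequence was at hand for 3 of the 4 genes, Cebpd being the one without an entry. The 250 bases before each start are shown because Cebpa and Cebpg, the neighbours, were both lower in AE cells, while Cebpb was not. This holds for the leading probe set of each gene, the one with the highest mean. Positions are counted back from the start of the gene, with -1 the last base shown. The Cebpa window is chr7:35119043-35119292 on the plus strand. Its capitals mark TTGCGC, 6 letters of the C/EBP consensus TTGCGCAA, at -185 to -180, and the TATA box letters TATAAA at -30 to -25. The Cebpb window is chr2:167688665-167688914 on the plus strand, and its capitals mark the cyclic AMP response core TGACG, read on the minus strand at -180 to -176 and on the plus strand at -53 to -49 and -7 to -3. The Cebpg window is chr7:35056567-35056816 on the minus strand, printed in the direction of the gene, and its capitals mark CCAAT read on the opposite strand at -89 to -85 and -28 to -24.
Cebpa: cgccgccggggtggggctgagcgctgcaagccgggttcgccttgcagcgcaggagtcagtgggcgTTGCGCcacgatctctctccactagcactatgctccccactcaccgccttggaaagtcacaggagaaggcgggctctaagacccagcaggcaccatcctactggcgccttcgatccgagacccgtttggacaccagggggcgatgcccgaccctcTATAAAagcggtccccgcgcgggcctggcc
Cebpb: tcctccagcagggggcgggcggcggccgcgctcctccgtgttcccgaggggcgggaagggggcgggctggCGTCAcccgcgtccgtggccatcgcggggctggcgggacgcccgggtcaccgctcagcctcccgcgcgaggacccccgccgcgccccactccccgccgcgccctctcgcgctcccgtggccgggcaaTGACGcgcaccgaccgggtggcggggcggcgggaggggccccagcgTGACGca
Cebpg: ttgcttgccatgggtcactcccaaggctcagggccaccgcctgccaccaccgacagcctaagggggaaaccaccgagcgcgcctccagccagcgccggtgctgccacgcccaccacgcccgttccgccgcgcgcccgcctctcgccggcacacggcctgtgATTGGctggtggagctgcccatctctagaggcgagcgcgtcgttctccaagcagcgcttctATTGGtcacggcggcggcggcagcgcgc

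All motifs were searched on both strands, and TTGCGC lies inside TTGCGCAA. Of 32851 mouse promoter windows of the same length, 5.34% held TTGCGC, 0.164% held TTGCGCAA, 12.4% held TATAAA, 17.8% held TGACG and 33.8% held CCAAT. The Runx core TGTGGT (14% of windows), the STAT pattern TTCNNNGAA (7.02%) and the E-box CACGTG (6.02%) were not among the letters of these 3 windows. GC content was 66.4% for Cebpa, 81.6% for Cebpb and 70.8% for Cebpg. A match describes the letters of the window and no binding was measured.

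Values below are the authors' log2 expression estimates. Means carry the SD over arrays, and differences are differences of log2 values with their standard error (SE). A gene is called when the adjusted p of limma is under 0.05. Array medians lay between 5.63 and 5.76, and between 46.1% and 48.3% of the probe sets exceeded a linear value of 60 (log2 5.91), which is taken as background here. The marker genes listed for GMP were all over background in every group by their means. Of the 8 LSK markers on the array, 6 were over background in LSK cells, where the stem cell marker Procr read 8.77 ± 0.12 (SD, n = 3) while it was under background on all normal GMP arrays. L-GMP replicate 1 stood apart: its mean correlation with the other L-GMP arrays was 0.899, and it had the widest gap between 3' and 5' control probe sets of Gapdh (4.82) and of actin (3.45) on any array. The log2 of the mean linear level of 8 mature neutrophil markers was 12.55 on this array against 9.167 and 8.175 on replicates 2 and 3. Among normal GMP, replicate 2 correlated least with its group (0.952). Array file names carry a tag of unstated meaning (A, B or none), and all GFP arrays have tag A while AE has a single array with it.

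Cebpa, the factor that opens the granulocyte and monocyte path, was low in LSK cells, higher in normal GMP and low again in GMP carrying AE. LSK arrays 1 to 3 read 7.44, 7.58 and 7.73, and the normal GMP arrays 8.95, 8.31, 8.82 and 8.82. No LSK array reached the lowest GMP array. The LSK mean was 1.14 below normal GMP (SE 0.19, 2.21-fold, adjusted p = 0.00402). In this comparison 2 of the 4 C/EBP genes were called, both lower, against a background of 16.4% of genes called and 5.27% called lower. Because these are bulk populations, fewer cells with a transcript and less transcript per cell cannot be told apart.

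The GFP arrays read 9.28, 8.92 and 9.04 for Cebpa, the MT2 arrays 9.25, 9.29, 9.42 and 9.43, and the NHA9 arrays 9.27, 9.10 and 9.17. These 3 groups overlapped. The AE arrays read 8.06, 7.89, 6.99 and 7.61, all below every GFP, MT2 and NHA9 array. AE was 1.44 below GFP (SE 0.24, 2.72-fold, adjusted p = 0.00669). Within tag A, where AE has replicate 1 alone and its spread is taken to be that of the GFP arrays, the difference was -1.02 (adjusted p = 0.019). In AE against GFP 2 of 4 C/EBP genes were called, both lower, where 12.1% of genes were called and 2.43% were called lower. The AE mean of 7.64 was near the LSK mean of 7.58, and these groups overlapped (LSK minus AE -0.05, adjusted p = 0.901 in a limma fit to all 7 groups).

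L-GMP arrays spread widely for Cebpa, at 9.36, 8.03 and 7.65, with replicate 1 above every normal GMP array and the others below all of them. The mean difference from normal GMP was -0.37 (SE 0.38, adjusted p = 0.685, 95% interval -1.24 to 0.49). Without replicate 1 it was -0.88 (adjusted p = 0.0552). In a setting added after the values were seen, without replicate 1 and without normal GMP replicate 2, it was -1.02 (adjusted p = 0.00743). Within tag A, which leaves replicate 1 as the lone leukemic array, the sign turned to 0.67 (adjusted p = 0.372). The part of the neutrophil markers and of RNA quality in the reading of replicate 1 was not tested.

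**Figure D1:**
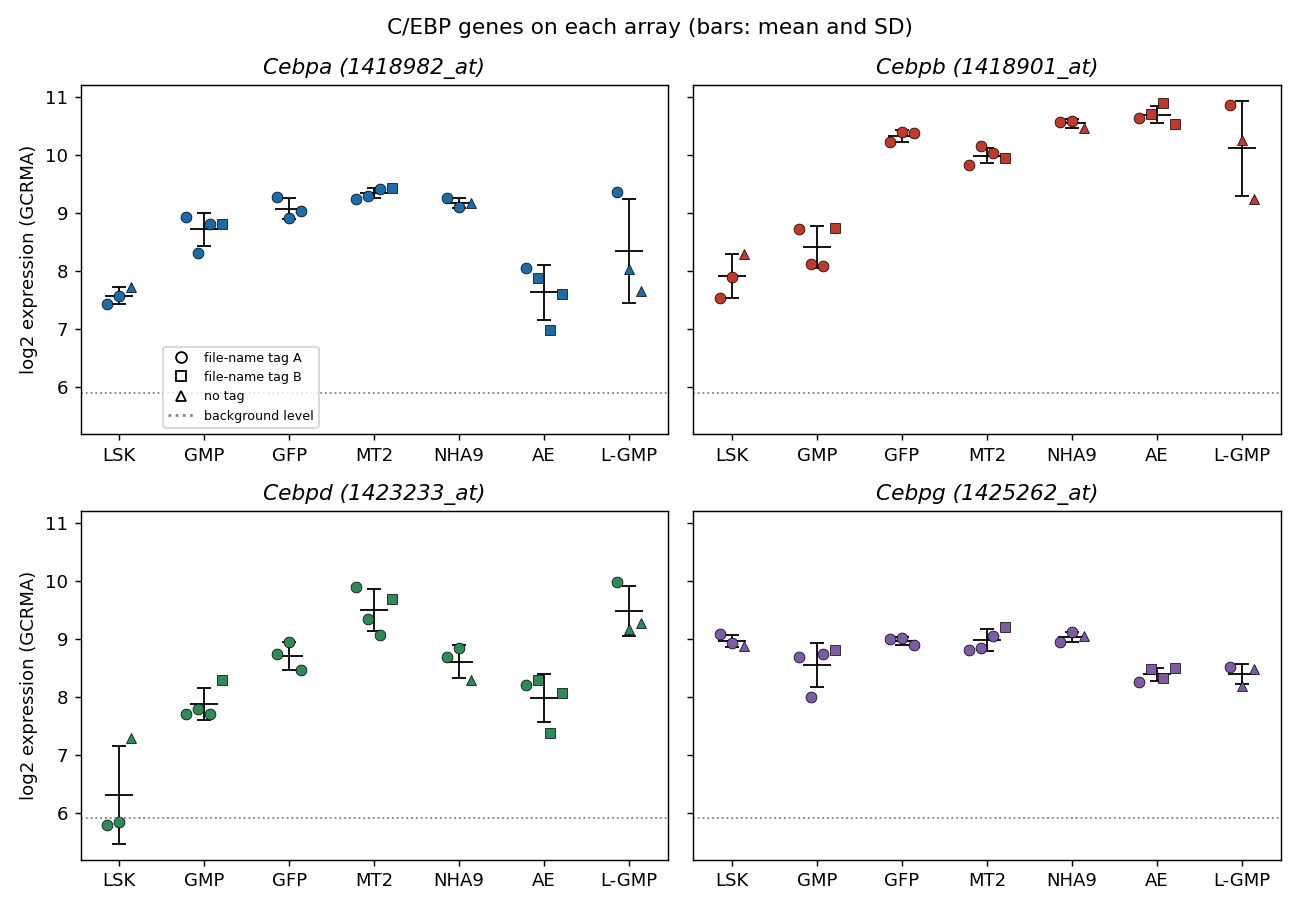
Log2 expression (vertical axes) of the leading probe set of each C/EBP gene on every array, by group (horizontal axes), with horizontal bars for the group mean and the SD and marker shapes for the file-name tag. The AE arrays lie at 6.99 to 8.06 for Cebpa, below all GFP, MT2 and NHA9 arrays, and normal GMP and LSK arrays lie lowest for Cebpb, at 7.54 to 8.74.

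Cebpb, the factor of emergency granulopoiesis and macrophage activation, was lowest in the normal LSK and GMP groups and higher in every transduced group and in L-GMP. Normal LSK arrays read 7.54, 7.90 and 8.30 and normal GMP arrays 8.74, 8.13, 8.09 and 8.74, and these groups overlapped (difference -0.51, SE 0.25, adjusted p = 0.207). The GFP arrays read 10.22, 10.41 and 10.39, far above every normal GMP array. Cebpb rose by 1.92 in GFP cells against normal GMP (SE 0.21, 3.77-fold, adjusted p = 0.000447). In this comparison 2 of 4 C/EBP genes were called, both higher, against 16.6% of genes called and 8.77% called higher. Transduction, culture and harvest differ together between these groups and cannot be told apart.

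Among the transduced groups, MT2 arrays were lowest for Cebpb at 9.84, 10.15, 10.04 and 9.95. NHA9 arrays read 10.58, 10.60 and 10.47, and AE arrays 10.65, 10.71, 10.89 and 10.54. Neither NHA9 nor AE overlapped MT2. MT2 was 0.55 below NHA9 (SE 0.12, adjusted p = 0.0152) and 0.70 below AE (SE 0.11, adjusted p = 0.000488). The first of these calls was lost in a fit to all 7 groups (adjusted p = 0.266), with the tag as a factor (0.137), and without MT2 replicate 1 (0.0587), NHA9 replicate 1 (0.0746) or NHA9 replicate 2 (0.0567), and the second with the tag as a factor (0.0768). Against GFP no oncogene group was called for this probe set: the differences were -0.34 for MT2 (adjusted p = 0.082), 0.21 for NHA9 (adjusted p = 0.58) and 0.36 for AE (adjusted p = 0.133). For AE the second Cebpb probe set was called, at 0.62 (adjusted p = 0.0199).

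L-GMP arrays read 10.86, 10.26 and 9.25 for Cebpb, all above the highest normal GMP array. The difference from normal GMP was 1.70 (SE 0.37, 3.25-fold, adjusted p = 0.0354). Here 2 of 4 C/EBP genes were called, both higher, against 5.23% of genes called and 3.62% called higher. The call was lost without L-GMP replicate 2 (adjusted p = 0.15) and without any single normal GMP array (0.0643 to 0.106), and it was kept without L-GMP replicate 1 (1.33, adjusted p = 0.0434).

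The change in Cebpb relative to Cebpa on the same array can be followed between groups, although the levels of 2 probe sets cannot be set against each other. The difference Cebpb minus Cebpa averaged -0.30 in normal GMP (SD 0.30, n = 4) and 1.26 in GFP cells (SD 0.28, n = 3). It was 0.65 in MT2 cells (SD 0.15, n = 4), 1.37 in NHA9 cells (SD 0.11, n = 3) and 3.06 in AE cells (SD 0.58, n = 4). The AE arrays lay between 2.59 and 3.91, above every other array of the series. On the L-GMP arrays it read 1.50, 2.22 and 1.59, so replicate 1, high for both genes, was close to replicate 3 in this measure.

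Cebpd, the acute phase member, had its lowest arrays in LSK cells and its highest in MT2 and L-GMP. LSK arrays read 5.80, 5.85 and 7.29, so that 2 of the 3 were under background and replicate 3 was not. Normal GMP arrays read 7.72, 7.79, 7.71 and 8.30, above all LSK arrays. LSK was 1.56 below normal GMP (SE 0.35, adjusted p = 0.0172), and since values under background have no order the fold of 2.95 is a description. The call was lost without LSK replicate 1 (adjusted p = 0.085) or replicate 2 (0.0858), which leave replicate 3 as 1 of 2 arrays.

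GFP arrays read 8.74, 8.95 and 8.46 for Cebpd, above every normal GMP array. The gain over normal GMP was 0.84 (SE 0.20, 1.79-fold, adjusted p = 0.0203), and leaving out GFP replicate 1 or 2 or normal GMP replicate 1 or 3 raised the adjusted p to between 0.0644 and 0.104. MT2 arrays read 9.90, 9.35, 9.07 and 9.70, all above the GFP arrays. The difference was 0.79 (SE 0.20, 1.73-fold, adjusted p = 0.0323), and it was the 1 of 4 C/EBP genes called in MT2 against GFP, where 12% of genes were called and 8.8% called higher. It was lost without MT2 replicate 1 or 4 or any GFP array (adjusted p 0.0684 to 0.102) and within tag A (0.72, adjusted p = 0.072).

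NHA9 arrays read 8.69, 8.85 and 8.29 for Cebpd and AE arrays 8.20, 8.29, 7.38 and 8.08. NHA9 overlapped GFP (difference -0.11, adjusted p = 0.848). AE lay below all GFP arrays without being called (difference -0.73, SE 0.23, adjusted p = 0.0704). The span between oncogenes was widest from MT2 to AE, at 1.51 (SE 0.22, 2.86-fold, adjusted p = 0.000241), a call kept under every alternative run. MT2 exceeded NHA9 by 0.89 (SE 0.24, adjusted p = 0.0336), which was lost under 11 of 17 alternatives, among them the omission of MT2 replicate 1 or 4 or of any NHA9 array (adjusted p 0.054 to 0.109). L-GMP arrays read 9.98, 9.18 and 9.28, above all normal GMP arrays, and Cebpd was 1.60 higher there (SE 0.26, 3.04-fold, adjusted p = 0.01). Without L-GMP replicate 1 the difference was 1.35 (adjusted p = 0.00852), and with the mean of the probe sets it was 0.85 and the call was lost (adjusted p = 0.0588).

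Cebpg, the partner-dependent member, varied least, its group means spanning 8.39 to 9.03. Normal LSK arrays read 9.09, 8.94 and 8.88, and normal GMP arrays 8.70, 7.99, 8.74 and 8.81 (difference 0.41, SE 0.21, adjusted p = 0.241). GFP arrays read 9.01, 9.02 and 8.89, MT2 arrays 8.81, 8.85, 9.06 and 9.21, and NHA9 arrays 8.94, 9.11 and 9.05, and these 3 overlapped. AE arrays read 8.26, 8.48, 8.33 and 8.49, below all arrays of those groups. AE was 0.58 below GFP (SE 0.13, 1.50-fold, adjusted p = 0.0251). The call was lost without AE replicate 2 or 3 or any GFP array (adjusted p 0.0526 to 0.131) and with the mean of the probe sets (-0.30, adjusted p = 0.121). The second Cebpg probe set was over background on every AE and GFP array. It differed by -0.16 between these groups, which overlapped (adjusted p = 0.553 in limma).

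L-GMP arrays read 8.52, 8.20 and 8.48 for Cebpg, within the range of normal GMP (difference -0.16, adjusted p = 0.797). That overlap rests on normal GMP replicate 2 (7.99), since replicates 1, 3 and 4 (8.70, 8.74 and 8.81) lay above every L-GMP array. For the second Cebpg probe set L-GMP was 0.56 above normal GMP without overlap and without a call (adjusted p = 0.252 in limma). In the fit to all 7 groups, L-GMP was below GMP newly carrying the same MT2 fusion by 0.59 for Cebpg (adjusted p = 0.0142) and by 1.00 for Cebpa (adjusted p = 0.0157). The second Cebpg probe set, over background on every array of both groups, did not show this, averaging 6.65 in MT2 and 6.67 in L-GMP. For Cebpa the groups overlapped, since L-GMP replicate 1 (9.36) lay within the MT2 range and replicates 2 and 3 below it. For Cebpb and Cebpd the same difference, MT2 minus L-GMP, was -0.13 and 0.02 (adjusted p = 0.785 and 0.975). In this pair of groups 19.6% of genes were called. These cells differ also in culture, vector and time since transduction.

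**Figure D2:**
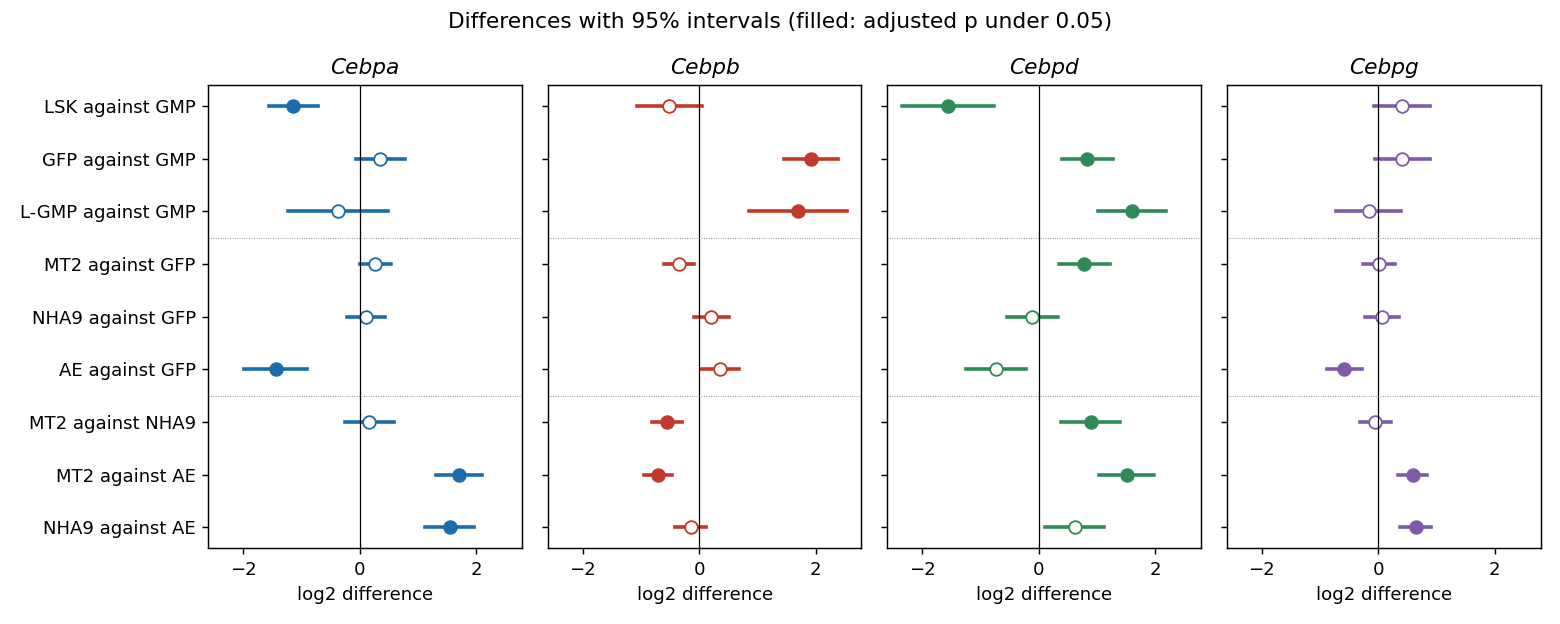
Log2 differences (horizontal axes) of the 4 C/EBP genes in 9 comparisons (vertical axis), with 95% intervals from limma as lines and filled points for an adjusted p under 0.05. The Cebpa point lies at -1.44 in AE against GFP, and the Cebpb points lie at 1.92 in GFP and 1.70 in L-GMP against normal GMP.

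The oncogene comparisons share the GFP arrays, so their differences from GFP are not independent of each other. Set side by side, Cebpa stood at 0.27, 0.10 and -1.44 against GFP in MT2, NHA9 and AE, and Cebpd at 0.79, -0.11 and -0.73. For NHA9 against GFP limma called 0 of 4 C/EBP genes by their leading probe sets, 0 at an unadjusted p under 0.05, and 0 by the methods' t-test, where 0.188% of genes were called. Over all genes 768 of 6919 had an unadjusted p under 0.05. The second Cebpb probe set was 0.36 higher in NHA9 (unadjusted p = 0.0308, adjusted p = 0.427 in limma). For both Cebpb probe sets every NHA9 array lay above every GFP array, without a call. With 3 arrays in each group such a separation can arise by chance, and no share over all genes was set beside it. These probe sets correlated at 0.977 over the 24 arrays, so they are not independent evidence. Among the leading probe sets the widest 95% interval for NHA9 was that of Cebpd, from -0.54 to 0.33. With all 11 oncogene arrays as 1 class against GFP, limma called 0 of 4, again 0 unadjusted and 0 by the methods' t-test, with 0% of 7316 genes called and 832 genes under an unadjusted p of 0.05.

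Between oncogenes, all 4 C/EBP genes were called in MT2 against AE, where 30.1% of genes were called: Cebpa was 1.71 higher in MT2 (SE 0.18, adjusted p = 2.6e-05), Cebpd 1.51 higher, Cebpg 0.59 higher (adjusted p = 0.00178) and Cebpb 0.70 lower. With the mean of the probe sets Cebpg differed by 0.32 and its call was lost (adjusted p = 0.0722). In NHA9 against AE 2 of 4 were called, where 8.1% of genes were called and 3% called higher, with Cebpa 1.55 higher in NHA9 (SE 0.20, adjusted p = 0.000387) and Cebpg 0.64 higher (SE 0.12, adjusted p = 0.00539). In MT2 against NHA9 2 of 4 were called, where 8.03% of genes were, and these were Cebpb and Cebpd, in opposite directions. The methods' t-test, which takes each gene's own spread, kept 3 of the 4 calls in MT2 against AE and 1 of the 2 in GFP against normal GMP, and 0 in every other comparison described above.

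Ordered by level, Cebpa ran from MT2 (9.35) through NHA9, GFP, normal GMP, L-GMP and AE to LSK (7.58), and no neighbours in this order were called different. For Cebpb the order was AE (10.70), NHA9, GFP, L-GMP, MT2, normal GMP and LSK (7.91), and the step from MT2 to normal GMP was the one called (1.57, adjusted p = 8.87e-05). For Cebpd it was MT2 (9.50), L-GMP, GFP, NHA9, AE, normal GMP and LSK (6.32), with the step from normal GMP to LSK called (1.56, adjusted p = 0.000935). For Cebpg it was NHA9 (9.03), MT2, GFP, LSK, normal GMP, L-GMP and AE (8.39), with no neighbours called. Of the 21 pairs of groups in the 7-group fit, Cebpa was called in 9, Cebpb in 11, Cebpd in 10 and Cebpg in 9. That is 39 of 84 tests, where 20.9% of the tests over all genes and pairs were called. The 21 pairs of a gene share 7 group means, so these tests are not independent and the count is a description.

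Probe sets of a gene did not follow each other equally well. The pair for Cebpb correlated at 0.977 over the 24 arrays. The second Cebpd probe set was over background on 6 of 24 arrays and correlated at 0.697 with the leading one. The second Cebpg probe set was over background on 22 of 24 arrays and correlated at 0.386. The third correlated at 0.168 and was under background on all 24 arrays. The results for Cebpg thus rest on 1 probe set, and why the second differed from it was not tested. These correlations are a description, since arrays of a group share their source.

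**Figure D3:**
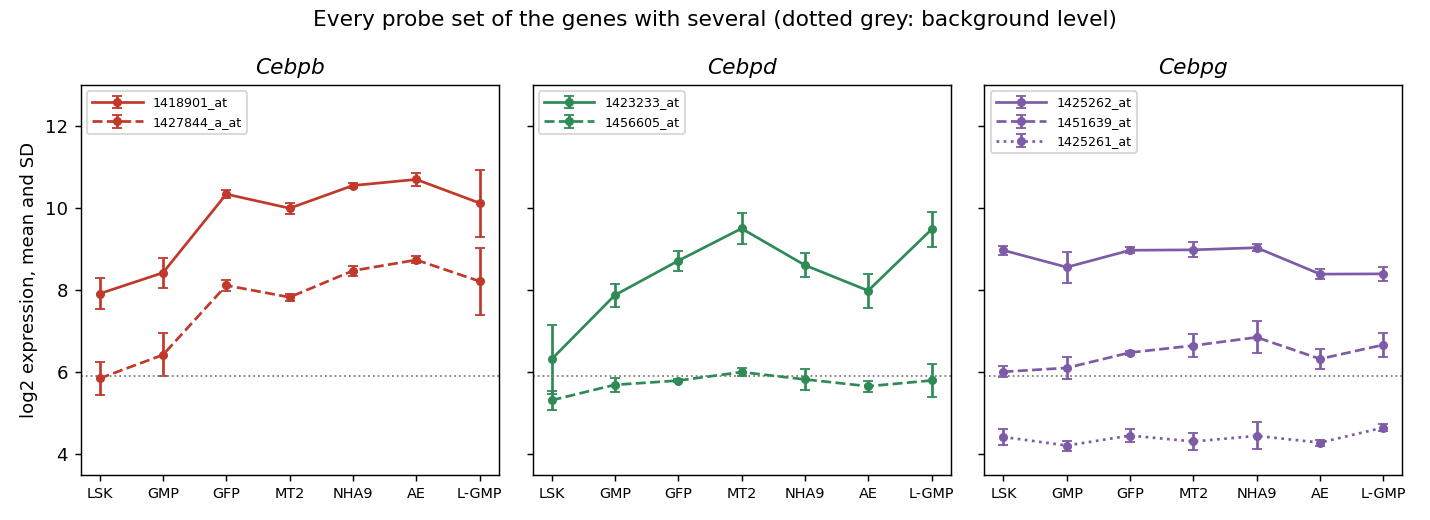
Group means with SD bars of log2 expression (vertical axes) for each probe set of the 3 genes with several, by group (horizontal axes), and the background level as a dotted line. The 2 Cebpb lines run in parallel, while the third Cebpg line stays below the background level.

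Across groups, the 4 genes moved in different combinations. Cebpa and Cebpd correlated at 0.65 over the 24 arrays and Cebpb and Cebpd at 0.64, whereas Cebpa and Cebpb correlated at 0.28 and Cebpb and Cebpg at -0.07. After removal of the group means Cebpa and Cebpb correlated at 0.60, Cebpa and Cebpd at 0.50 and Cebpb and Cebpd at 0.39. L-GMP arrays spread most of any group for Cebpa (SD 0.90) and Cebpb (SD 0.82), with replicate 1 highest and replicate 3 lowest for both. The value of 0.60 therefore leans on the L-GMP arrays, and it was not computed without them. Among 7593 genes over background on at least 2 arrays of a group, the closest to Cebpa by Pearson correlation were Nin (0.93), Nxn, Hsd17b1, Rnaseh2c and Csgalnact2 (0.82), and the most opposed were Ddah2 (-0.90), Cul7 and Egfl7. The closest to Cebpb were the lysozyme genes Lyz1 (0.96) and Lyz2 (0.95), Sat1, Stx7 and the acute phase gene Saa3 (0.93), and the most opposed were Cdca7l (-0.90), Isoc1 and the stem cell factor receptor Kit. After removal of the group means, Lyz1 kept a correlation of 0.85 with Cebpb, Lyz2 and Stx7 0.79 and Sat1 0.61, while Saa3 stood at -0.03. The opposed genes then stood at -0.49 (Cdca7l), -0.41 (Isoc1) and -0.03 (Kit). The closest to Cebpd were Stom (0.90), Mefv, Cyrib, Gsr and the granulocyte repressor Gfi1 (0.88), with Smap2 (-0.87), Tmem176b and Itih5 opposed. Without the group means the Cebpd values were 0.14 for Stom, 0.41 for Mefv and Cyrib, 0.54 for Gsr and 0.22 for Gfi1. For the opposed genes they were -0.60 (Smap2), -0.29 (Tmem176b) and 0.25 (Itih5). The closest to Cebpg were Il21r (0.87), Snx14, Cd37, Lrrfip2 and Echdc1 (0.78), with Ltbr (-0.77), Clmp and Dtx2 opposed.

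Genes around the C/EBP factors were described by 9 lists, each beside the median difference of all genes tested. Of the C/EBP family outside the 4 members, Ddit3, a dimer partner that does not bind the classical site, was measured, and Cebpe and Cebpz were not analysed here. Ddit3 was 0.72 higher in LSK cells than in normal GMP (adjusted p = 0.0243) and was called in neither AE, MT2, NHA9 nor leukemia comparisons against their controls.

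In LSK cells against normal GMP, where Cebpa and Cebpd were lower, 6 of 16 tested granulocyte genes reported as C/EBP targets were lower and 0 higher, with a median of -0.25 against 0.06 for all genes. The azurophil granule protease genes Ctsg (-2.07, adjusted p = 0.000647) and Prtn3 (-1.35, adjusted p = 0.00133), the myeloperoxidase gene Mpo (-1.14) and Gfi1 (-0.98) were among them. Of 12 factors reported at the Cebpa enhancer, 6 were higher in LSK cells, including Meis1 (9.28 ± 0.19 against 5.87 ± 0.78, under background in normal GMP), Tal1 (2.02), Gata2 (1.59) and Lmo2 (1.28), and Spi1, the gene of PU.1, was lower by 0.57. Over all genes 11.2% were called higher in LSK cells. AP-1 genes of the bZIP list, which are immediate early genes, were higher: Fos by 1.92, Jun by 2.21 and Junb by 1.43. Monocyte markers were lower for 5 of 7 tested. Adgre1 and Cd14 of this list were under background on all LSK arrays, so they were tested through normal GMP alone and could hardly be called higher.

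In GFP cells against normal GMP, where Cebpb and Cebpd were higher, the inflammatory genes reported as C/EBP beta or delta targets were called higher for 4 of 6 tested (median 1.15 against -0.05 for all genes). Saa3 read 13.24 ± 0.08 (SD, n = 3) in GFP cells and 5.49 ± 0.14 (SD, n = 4) in normal GMP, where its mean was under background, and the arginase gene Arg1 8.49 ± 0.91 against 3.31 ± 0.26, also under background. The haptoglobin gene Hp rose by 0.91 and the lipopolysaccharide coreceptor gene Cd14 by 1.39. Of 15 cytokine signalling genes 6 were higher, among them the feedback inhibitor Socs3 (10.34 ± 0.12 against 4.21 ± 0.42, under background in normal GMP) and the receptor gene Tlr2 (1.59). Of 16 amino acid and redox genes linked to ATF4 and C/EBP gamma, 10 were higher and 0 lower, with a median of 1.34. These included the asparagine synthetase gene Asns (2.63), Gclm (1.99), the cystathionine lyase gene Cth (8.20 ± 0.74 against 3.19 ± 0.17, under background in normal GMP) and the pseudokinase gene Trib3 (2.46, from a mean under background). Genes such as Cth and Trib3 were tested through their GFP values alone and could hardly be called lower. The count of 0 lower and the median of this list are therefore set in part by the filter. The same holds for Saa3 and Arg1 in the inflammatory list. In the bZIP list Nfil3, Atf3, Atf4, Atf5 and Junb were higher, by 1.52, 2.22, 1.00, 0.87 and 0.81 (Nfil3 and Atf3 from means under background in normal GMP), while Fos and Jun were lower by 2.28 and 1.95. Of 18 granulocyte genes 6 were higher and 2 lower, with a median of 0.18: Mmp8 (5.34), Id2 (3.06, from a mean under background in normal GMP) and Lyz2 (2.18) were among the higher, and the secondary granule genes Camp (-2.55) and Ltf (-2.26) were the lower. Of the 12 Cebpa enhancer factors Ets1 was higher (1.16, from a mean under background) and Meis1 (-1.78), Tal1 (-1.64), Gata2 (-0.85) and Lmo2 (-0.71) were lower. Markers of monocytes were higher for 6 of 7 tested, their summed level (log2 of the mean linear value) running from 10.65 to 10.71 in GFP cells and from 9.14 to 9.83 in normal GMP, and all 5 tested mast cell, basophil and eosinophil markers were lower. Over all genes 7.83% were called lower in GFP cells. Erythroid and megakaryocyte markers were lower for 4 of 6 tested, with a summed level of 6.31 to 6.86 in GFP cells and 7.38 to 8.27 in normal GMP. Epx, Gata1, Klf1 and Gp9 were under background on all GFP arrays. They were tested through normal GMP alone and could hardly be called higher, so these marker counts are also set in part by the filter. The part of these markers in the Cebpb and Cebpd differences was not tested.

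In AE cells against GFP, Cebpa and the leading Cebpg probe set were lower. Of 18 granulocyte genes 3 were lower, the elastase gene Elane (-1.03, adjusted p = 0.0166), Gfi1 (-0.90) and Mpo (-0.67), and Lyz2 was higher (0.76). The list median was -0.25 against 0.10 for all genes. The inflammatory list was called higher for 4 of 8 tested, where 9.68% of all genes were called higher, with a median of 1.70: Arg1 (12.04 ± 0.57 against 8.49 ± 0.91), the chemokine gene Cxcl2 (9.64 ± 1.10 against 5.15 ± 0.65, under background in GFP cells), Il1b (8.58 ± 0.84 against 5.54 ± 0.38, likewise) and Cd14 (2.72). Of 15 genes of this list on the array, Cxcl2 and Il1b were tested through their AE values alone. The count and the median of the list are therefore raised in part by the filter. Jun, Junb and Jund of the bZIP list were higher by 1.92, 1.38 and 0.83, and Rela, Csf1r, Tlr2 and Tlr4 of the 15 cytokine genes were higher by 0.91, 0.67, 1.01 and 1.36. The median over the 11 tested factors of the Cebpa enhancer was -0.10. Monocyte markers were higher for 3 of 7 tested, Cd14, Csf1r and Cd68, with a summed level of 10.94 to 11.39 in AE and 10.65 to 10.71 in GFP cells. The GMP markers had summed levels of 11.76 to 12.21 in AE and 12.41 to 12.55 in GFP cells, with Elane, Mpo and Ms4a3 (-1.13) lower and Cd34 higher (1.98). Markers of erythroid cells and megakaryocytes had a summed level of 8.25 to 9.44 in AE and 6.31 to 6.86 in GFP cells, where the platelet factor gene Pf4 was the 1 of 3 tested that was called (3.12, adjusted p = 0.00154) and Hba-a1, Gata1 and Klf1 were under background on all arrays of both groups. Of 4 tested mast cell, basophil and eosinophil markers Hdc (1.54) and Cpa3 (1.73) were higher, with a summed level of 6.74 to 7.67 in AE and 6.12 to 6.48 in GFP cells. Of 3 tested lymphoid markers Cd79b (1.29) and Il7r (1.24, from a mean under background) were higher, with a summed level of 6.11 to 6.30 in AE and 5.35 to 5.63 in GFP cells. The part of these cell type markers in the Cebpa difference was not tested.

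In MT2 cells against GFP, where Cebpd was higher, 5 of 18 granulocyte genes were lower and 0 higher, among them Lcn2 (-1.11), S100a9 (-1.83), Mmp8 (-1.52) and Id2 (-1.57). Over all genes 3.22% were called lower, and the list median was -0.71 against 0.06 for all genes. Of 17 amino acid and redox genes 8 were higher, with a median of 0.48, including Aldh18a1 (0.69), Phgdh (0.61), Psat1 (0.46) and Gpt2 (1.20, from a mean under background). Of the Cebpa enhancer factors Lmo2, Meis1, Elf1 and Tal1 were higher, by 1.19, 2.19, 1.17 and 1.34, and Ets1 was lower by 1.01. The Meis1 and Tal1 means in GFP cells and the Ets1 mean in MT2 cells were under background. Mature neutrophil markers were lower for 4 of 7 tested, with a summed level of 9.63 to 11.16 in MT2 and 11.68 to 11.93 in GFP cells. Of the lists on regulators of C/EBP protein and on the cell cycle, the translation factor gene Eif4e was higher in MT2 than in GFP cells by 0.60 (adjusted p = 0.0243) and the growth regulator gene Mycn lower by 2.83 (adjusted p = 0.00299). In AE cells Mycn was 0.85 below GFP (adjusted p = 0.0305). In NHA9 cells against GFP a single pathway gene was called, Mycn, lower by 1.57 (adjusted p = 0.0283).

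In L-GMP against normal GMP, where Cebpb and Cebpd were higher, 4 of 12 Cebpa enhancer factors were higher, Lmo2 (1.24), Meis1 (2.27, from a mean under background), Spi1 (0.91) and Runx1 (1.25). Saa3 was the 1 called of 7 inflammatory genes, at 11.18 ± 0.73 against 5.49 ± 0.14, under background in normal GMP. The receptor gene Csf1r (1.65) and Socs3 (2.50, under background in normal GMP) were higher in the cytokine list. Of the cell cycle genes, Mycn (2.68, adjusted p = 0.00203), the cyclin gene Ccnd1 (2.41) and the Cdk inhibitor gene Cdkn1a (1.97) were higher and the cyclin gene Ccnd2 was lower by 3.40. Monocyte markers were higher for 2 of 7 tested, Csf1r and Cd68 (1.88), with a summed level of 10.46 to 11.25 in L-GMP and 9.14 to 9.83 in normal GMP. Over all genes 1.61% were called lower in L-GMP. Mast cell, basophil and eosinophil markers were lower for 3 of 5 tested, Prg2 (-3.62), Epx (-2.58) and Mcpt8 (-1.67), of which Prg2 and Epx had means under background in L-GMP, with a summed level of 5.83 to 7.81 in L-GMP and 8.16 to 8.54 in normal GMP. The erythroid and megakaryocyte markers had summed levels of 4.95 to 6.68 and 7.38 to 8.27, with Pf4 lower by 3.96, and among the GMP markers Kit was lower by 2.25. The part of these markers in the Cebpb and Cebpd differences was not tested. Of 16 granulocyte genes limma called Lyz2 (2.21) and Gfi1 (1.14) higher and 0 lower. Without L-GMP replicate 1, a setting added after the values were seen, 3 granulocyte genes were higher and 7 lower, with the list median moving from -0.79 to -1.60. Calls over all genes went from 371 to 744 there, or 10.5% of genes, and the median of all genes from 0.03 to 0.11. In the same setting the Cebpa enhancer factors counted 6 higher and 3 lower, and mature neutrophil markers 5 lower of 7.

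**Figure D4:**
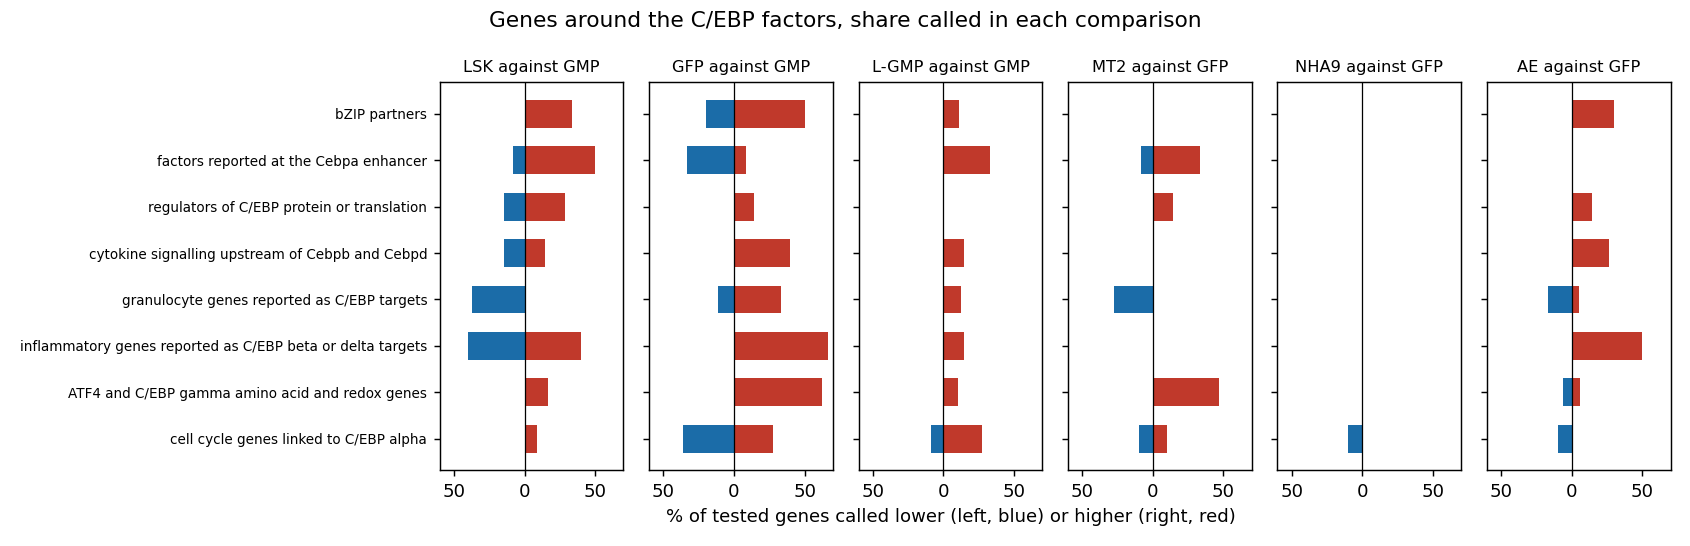
Share of tested genes called lower (left, blue) or higher (right, red), in percent (horizontal axes), for 8 gene lists (vertical axis) in 6 comparisons. Amino acid and redox genes and inflammatory genes are called higher in GFP against normal GMP (10 of 16 and 4 of 6), and granulocyte genes are called lower in LSK against normal GMP (6 of 16) and in MT2 against GFP (5 of 18). Some genes in the counts for GFP against normal GMP were tested through their GFP values alone.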

How the data were processed

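RNA of 24 samples was hybridised to Affymetrix Mouse Genome 430A 2.0 arrays. The deposited values are log2 expression estimates that the authors made with GCRMA 2.4.1 from MAS5 cell intensity files, as recorded in the series design text and, per the submitters' processing notes, with that version. They were used as deposited, and 0 columns of other samples were present. A gene with several probe sets was read from the one with the highest mean over all arrays. Testing required a linear value over 60 (log2 5.91) on 2 or more arrays of a compared group, and was done with limma 3.58.1 in R 4.3.3 (lmFit, eBayes) with Benjamini-Hochberg adjustment over all tested probe sets and a threshold of 0.05. A gene under background in 1 group was thus tested through the other, which tilts list counts and medians toward that other group. Differences between oncogenes were contrasts over the 14 transduced arrays, and the 21 pairs of groups came from 1 fit to all arrays. The Welch test of the design text is called the methods' t-test and served as an alternative. Other alternatives were quantile normalization, no filter, the mean of a gene's probe sets, trended and robust eBayes, the file-name tag or prefix as a factor, tag A alone, the replicate block, a fit to all 7 groups, and each array left out in turn. Same-numbered replicates did not deviate together in every pair, so no pairing was used. The members and lists were chosen with earlier results of these data known. From each list up to 4 called genes with the smallest adjusted p were named, and other named genes were chosen after their values were seen. For likeness the 5 highest and 3 lowest correlations were taken. Promoters are RefSeq sequence of GRCm38.p6. Precision is limited by how many arrays each group has. The fit was tested on simulated data with independent normal noise for each probe set. Such data hold no outlying array, tag effect or shared source of arrays, so that test does not bear on these limits.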

Additional observations from a re-analysis of the deposited data

Results flagged for a closer look

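Chance marks about 1 in 20 groups of 4 as holding a distant array, and 24 such groups were examined over the 8 probe sets, of which 2 were marked. For Cebpd, normal GMP replicate 4 read 8.30, away from the nearest array at 7.79. For Cebpg, normal GMP replicate 2 read 7.99, away from the nearest at 8.70.

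Effects of the oncogenes on the C/EBP genes differed from each other by the direct contrast in limma. MT2 minus NHA9 was -0.55 for Cebpb and 0.89 for Cebpd. MT2 minus AE was 1.71 for Cebpa, -0.70 for Cebpb, 1.51 for Cebpd and 0.59 for Cebpg. NHA9 minus AE was 1.55 for Cebpa and 0.64 for Cebpg. AE has 1 array of tag A and 3 of tag B, and within tag A the Cebpa contrasts with AE were 1.26 for MT2 and 1.13 for NHA9 (adjusted p = 0.000915 and 0.00807). There the AE arm is a single array whose spread is taken to be that of the other groups, so its own spread was not measured.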

How the results depend on the processing

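Of 17 called C/EBP differences, 0 changed sign under 295 recomputations, 234 of which kept the call and 61 lost it. The groups of these differences did not overlap, so leaving out arrays could not turn a sign, and several other settings keep the difference itself. The 0 was thus largely fixed in advance and is no measure of stability. Of the calls, 2 (Cebpb in GFP against normal GMP, Cebpd in MT2 against AE) were kept under every alternative. The methods' t-test called 0 C/EBP genes in MT2 against GFP, AE against GFP, LSK against GMP, L-GMP against GMP, MT2 against NHA9 and NHA9 against AE, 1 in GFP against GMP and 16 over the 21 pairs, where limma called 39. It also called 0 of all genes in each single oncogene comparison with GFP, 181 in LSK (limma 1173), 8 in L-GMP (371), 412 in GFP against GMP (1179), 664 in MT2 against AE (2135), 3 in MT2 against NHA9 (561), 0 in NHA9 against AE (575) and 74 for all oncogenes (0). The count in MT2 against GFP was also 0 within tag A, with the tag as a factor and in the 7-group fit, and GFP against GMP gave 1 in the 7-group fit. The mean of the probe sets gave 1 in L-GMP against GMP, MT2 against NHA9 and NHA9 against AE, and 3 in MT2 against AE. Quantile normalization gave 1 in L-GMP against GMP. MT2 against NHA9 gave 1 without the filter or within tag A, and 0 with the tag as a factor or in the 7-group fit.

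Leaving out 1 array at a time gave counts of 1 to 3 in AE against GFP, 0 to 1 in MT2 against GFP, 0 to 0 in NHA9 and in all oncogenes against GFP, 1 to 2 in GFP, L-GMP and LSK against GMP, 0 to 2 in MT2 against NHA9, 4 to 4 in MT2 against AE, 2 to 2 in NHA9 against AE and 34 to 46 over the pairs. Differences that turned sign were all uncalled. Cebpg in MT2 against GFP (0.01) was -0.10 with quantile normalization, -0.065 within tag A and with the replicate block, -0.058 with the tag as a factor, -0.012 with the file-name prefix as a factor, and -0.065 to 0.067 with 1 array left out. Cebpd in NHA9 against GFP was 0.052 within tag A and -0.23 to 0.052 with 1 array left out. Cebpd in all oncogenes against GFP (-0.01) was 0.013 by the mean of the probe sets, 0.29 within tag A, 0.030 with the prefix and -0.13 to 0.13 with 1 array left out, and Cebpb was -0.029 within tag A. In L-GMP against GMP Cebpg was 0.28 by the mean of the probe sets and 0.041 within tag A, and Cebpa 0.67 within tag A. Cebpg in MT2 against NHA9 was -0.13 to 0.0051 with 1 array left out, and Cebpb in NHA9 against AE was 0.029 with the tag as a factor. The causes were not tested.

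The replicate number as a block gave 1 called C/EBP gene in AE against GFP (Cebpg -0.62, adjusted p = 0.11) and 43 over the pairs, added Cebpd in NHA9 against AE (0.67, adjusted p = 0.0316), changed no other C/EBP call in the comparisons with GFP or GMP, and same-numbered arrays correlated between -0.427 and 0.494. Over all genes the block gave 271 calls in AE against GFP (862 without), 219 in L-GMP against GMP and 1 in NHA9 against GFP (13 without). Tag A alone gave 104 calls in NHA9 against GFP, 119 in L-GMP and 1287 in MT2 against NHA9, and 773 in LSK against GMP. With the tag as a factor 210 genes were called in MT2 against GFP, 1283 in L-GMP, 1939 in LSK, 1790 in GFP against GMP and 218 in NHA9 against AE. The 7-group fit gave 136 in MT2 against GFP, 5 in NHA9 against GFP, 1326 in L-GMP, 248 in MT2 against NHA9 and 360 in NHA9 against AE. All oncogenes against GFP gave 16 with the tag as a factor and 21 in the 7-group fit. Quantile normalization gave 1868 calls in LSK and 1899 in GFP against GMP, and the prefix factor gave 636 in LSK and 20 in NHA9 against GFP, which gave 8 without the filter. Leaving out 1 array at a time gave 108 to 990 calls in MT2, 1 to 104 in NHA9 and 231 to 2003 in AE against GFP, 541 to 1831 in LSK, 137 to 744 in L-GMP and 543 to 2605 in GFP against GMP, and 179 to 663 in MT2 against NHA9 and 294 to 916 in NHA9 against AE. Without L-GMP replicate 1 and normal GMP replicate 2, a setting added after the values were seen, 3 C/EBP genes and 1336 genes in all were called in L-GMP against GMP.

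Quantile normalization moved the share of higher calls from 73.2% to 55.4% in MT2, from 79.9% to 60.1% in AE, from 67.9% to 52.5% in LSK, from 69.3% to 57.7% in L-GMP and from 37% to 48% in NHA9 against AE. It moved the median of all genes in AE against GFP from 0.0969 to -0.0122. Signal near background limits Cebpd in LSK cells and the second Cebpd probe set.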
